A study of Mus musculus with 8 samples.

Results

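The NADPH oxidase of phagocytes is described here through 5 genes chosen by their function and matched by symbol to the 46517 genes of the deposited table: *Cybb*, *Cyba*, *Ncf1*, *Ncf4* and *Nox4*. Osteoclasts, the multinucleated cells that resorb bone, were grown from femur marrow of 6 to 8 week old mice. Marrow cells were first cultured with medium conditioned by L929 cells (10%), which supplies M-CSF. The cells that attached were then replated and kept with GST-RANKL at 50 ng/ml for 7 days. RNA of 4 global *Elmo1*-/- mice and of 4 *Elmo1*+/- mice, which keep 1 intact allele and served as the controls, was read as pairs of 75 bp, and each mouse gave 1 library. The titles of the control libraries name them wild-type, whereas their genotype labels and the study's methods give *Elmo1*+/-. Mice of both genotypes were spread over 2 experiments, 2 mice per genotype in each, and the sources do not say which. The deletion was global, so it was also present in the marrow cells that entered the cultures.

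The phagocyte oxidase moves electrons from NADPH across a membrane onto oxygen and so makes superoxide. Its membrane core pairs the catalytic subunit gp91phox, encoded by *Cybb*, with p22phox, encoded by *Cyba*. The core is silent until cytosolic subunits, among them p47phox (*Ncf1*) and p40phox (*Ncf4*), dock on it together with an active Rac GTPase. NOX4 is a homologue of the catalytic subunit that also needs p22phox but works without the cytosolic subunits, and osteoclasts, which descend from the same myeloid precursors as macrophages, are known to make superoxide. ELMO1 acts with DOCK proteins to load Rac with GTP.

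The deposited values were reads counted per gene and divided by 1 size factor per library, called normalized counts below. Total reads on genes lay between 20905502 and 40846651 per library. *Elmo1* itself (chr13:20090596-20608353, plus strand, GRCm38) stood at normalized counts of 1528, 1423, 1769 and 1651 in *Elmo1*+/- replicates 1 to 4 and at 274, 287, 316 and 291 in *Elmo1*-/- replicates 1 to 4, a log2 difference of -2.44 (SE 0.09, limma adjusted p = 8.40e-06). The cultures carried osteoclast transcripts in every library, with a summed level of 12 osteoclast markers of 5074 to 16490 RPKM (reads of a gene scaled by its exon length and by the library total), whereas 6 lymphocyte markers summed to at most 0.189 and 10 stromal markers to at most 5.07. Macrophage markers (12 genes) summed to 1730 to 2281 on that scale. The libraries numbered 1 and 2 parted from those numbered 3 and 4 in both genotypes along the first principal component, which held 62.3% of the variance. The osteoclast marker sum was 5074 to 8652 in libraries 1 and 2 and 14780 to 16490 in libraries 3 and 4, and each member is therefore also given within these sets of 4 libraries.

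The start regions of the genes are shown for the catalytic subunit and for the pair of members, *Ncf1* and *Nox4*, whose values parted by library number. RefSeq held a start region for 4 of the 5 members (GRCm38.p6), and the window ran from 200 bases before the RefSeq start to 20 bases after it. The gene spans given below came from another annotation, GENCODE, and their outer ends can differ from this start. The *Cybb* window lies inside the span of its gene (chrX:9435252-9487771), and so does the *Nox4* window (chr7:87246096-87398710). Capitals mark matches, on either strand, to a pair of GAAA cores set 2 bases apart, a sequence of the kind that interferon regulatory factors bind. They also mark GAGGAA, a longer form of the GGAA core that PU.1 and other Ets factors read. The *Cybb* window (chrX:9469305-9469524, minus strand), the *Ncf1* window (chr5:134229606-134229825, minus strand) and the *Nox4* window (chr7:87246449-87246668, plus strand) read as follows, 5′ to 3′.
Cybb: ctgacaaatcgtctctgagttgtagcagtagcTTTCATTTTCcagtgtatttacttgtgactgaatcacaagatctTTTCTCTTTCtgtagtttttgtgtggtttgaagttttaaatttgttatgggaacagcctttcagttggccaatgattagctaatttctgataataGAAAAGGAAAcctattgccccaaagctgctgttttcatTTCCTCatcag
Ncf1: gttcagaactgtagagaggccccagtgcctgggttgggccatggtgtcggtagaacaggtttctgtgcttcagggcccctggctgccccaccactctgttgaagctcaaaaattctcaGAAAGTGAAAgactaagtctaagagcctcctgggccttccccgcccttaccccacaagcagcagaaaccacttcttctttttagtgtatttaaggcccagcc
Nox4: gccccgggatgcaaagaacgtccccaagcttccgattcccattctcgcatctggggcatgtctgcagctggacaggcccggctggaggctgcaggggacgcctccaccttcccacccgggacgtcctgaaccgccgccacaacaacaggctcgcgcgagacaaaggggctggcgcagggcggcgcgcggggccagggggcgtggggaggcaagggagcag
The paired GAAA cores occurred 3 times in the *Cybb* window, with the leftmost base at -168, -124 and -29 from the start, and 1 time in the *Ncf1* window, at -82. Of 32851 mouse start regions of the same length, 2.5% held this sequence. GAGGAA occurred 1 time in the *Cybb* window, at +10 on the other strand and apart from the GAAA pairs, against 20.9% of all start regions. The shorter GGAA was not searched on its own, and it also lies within the pair at -29. The windows of *Nox4* and *Cyba* (chr8:122432921-122433140, minus strand) held neither sequence. These matches are descriptions of the letters and no binding was measured.

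No difference between genotypes was detected for any of the 5 members. By limma on log2(normalized count + 1), 0 of 5 passed an adjusted p of 0.05, against 1 gene (0.00707%) of the 14139 tested, which was *Elmo1* itself. At an unadjusted p of 0.05 the count of members was again 0 of 5, beside 133 genes (0.941%) of those tested, and on the recovered whole reads edgeR (1 gene called in all, 0.00707%) and DESeq2 (2 genes called in all, 0.0141%) also called 0 members at either threshold. The limma fit had no term for library number, so its errors include the difference between libraries 1 and 2 and libraries 3 and 4. With a term for these sets, 411 genes fell under an unadjusted limma p of 0.05, and no member was among them. The values of the genotypes overlapped for all 5 members, whereas 133 genes (0.941%) did not overlap. In RNA of whole cultures, fewer cells of a type and less RNA per cell cannot be told apart.

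*Cybb* (ENSMUSG00000015340, chrX:9435252-9487771, minus strand), the catalytic subunit, had normalized counts of 54698, 55073, 55612 and 45891 in *Elmo1*+/- replicates 1 to 4. In *Elmo1*-/- replicates 1 to 4 they were 56056, 58648, 49090 and 59421. The genotypes overlapped, since the lowest value belonged to a control library and the third knockout library lay below the other 3 controls. The means were 52819 ± 4634 (SD, n = 4) and 55804 ± 4701 (SD, n = 4). The log2 difference, *Elmo1*-/- minus *Elmo1*+/-, was 0.08 (SE 0.10, limma adjusted p = 0.9999, exact permutation p = 0.429, n = 4 and 4), and its 95% confidence interval allowed a fold between 0.903 and 1.24. The 45891 of *Elmo1*+/- replicate 4 lay apart from the other 3 controls.

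*Cyba* (ENSMUSG00000006519, chr8:122424776-122432930, minus strand), the p22phox partner that both gp91phox and NOX4 need, had normalized counts of 19962, 17733, 18540 and 17714 in the controls. The knockout libraries held 22413, 15736, 18723 and 17924. Both the highest and the lowest of the 8 values were knockout libraries, so the knockout range enclosed that of the controls. The log2 difference was 0.01 (SE 0.11, limma adjusted p = 0.9999, exact permutation p = 0.914, n = 4 and 4), with a fold between 0.845 and 1.19 inside the 95% confidence interval.

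*Ncf1* (ENSMUSG00000015950, chr5:134220053-134229625, minus strand) encodes p47phox, the organizer that carries the cytosolic complex to the membrane. Its normalized counts were 16285, 15693, 12064 and 11152 in the controls and 18627, 13977, 11066 and 11773 in the knockout libraries. In each genotype the libraries numbered 1 and 2 were high and those numbered 3 and 4 were low. The log2 genotype difference was -0.00 (SE 0.19, limma adjusted p = 0.9999, exact permutation p = 0.971, n = 4 and 4), and the interval allowed a fold between 0.742 and 1.34. *Ncf1* shares 408 exon bases with *Gtf2ird2* on the opposite strand, and whether reads were counted by strand is not given in the sources used here. *Gtf2ird2* counts came to 1.64% to 2.13% of those of *Ncf1* in the same library.

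*Ncf4* (ENSMUSG00000071715, chr15:78244801-78262580, plus strand) encodes p40phox, which binds phosphoinositides on phagosomes and endosomes. Its normalized counts were 10693, 10182, 10272 and 10334 in the controls and 11657, 9946, 10406 and 9583 in the knockout libraries. The 4 control values lay inside the knockout range. *Ncf4* was the steadiest member, with an SD of 0.08 over the 8 log2 values, a spread undercut by 11.3% of the genes tested. The log2 difference was 0.00 (SE 0.08, limma adjusted p = 0.9999, exact permutation p = 1.0, n = 4 and 4), with a fold between 0.887 and 1.13 inside the interval.

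*Nox4* (ENSMUSG00000030562, chr7:87246096-87398710, plus strand) was barely detected. It drew 5, 4, 9 and 13 reads in the controls and 0, 4, 15 and 19 reads in the knockout libraries, 69 of 261004844 reads in all. As normalized counts these were 4.60, 3.95, 13.7 and 12.4 in the controls and 0, 4.79, 12.5 and 14.8 in the knockout libraries. The gene passed the filter on low values only through the libraries numbered 3 and 4. The 0 of *Elmo1*-/- replicate 1 allows up to 2.84 normalized counts, the worth of 3 reads, for counting error alone. The mean normalized counts of *Nox4* were 8.66 ± 5.09 (SD, n = 4) in the controls and 8.02 ± 6.85 (SD, n = 4) in the knockout libraries. On the scale of log2(normalized count + 1) the difference was -0.54 (SE 0.86, limma adjusted p = 0.9999, exact permutation p = 0.8286, n = 4 and 4). Its interval, as a fold of the count plus 1, ran from 0.179 to 2.66. With the replicate number as a block the same difference had an SE of 0.50 and a log2 interval from -1.65 to 0.57 (limma adjusted p = 0.9998). The labels do not say that these numbers pair libraries. Without *Elmo1*-/- replicate 1 the log2 difference was 0.32. Of the genes grouped here as the phagocyte oxidase, *Cybb*, *Cyba*, *Ncf1* and *Ncf4* were thus well covered by reads, while *Nox4*, a separate oxidase that shares *Cyba*, was at the edge of detection.

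**Figure D1:**
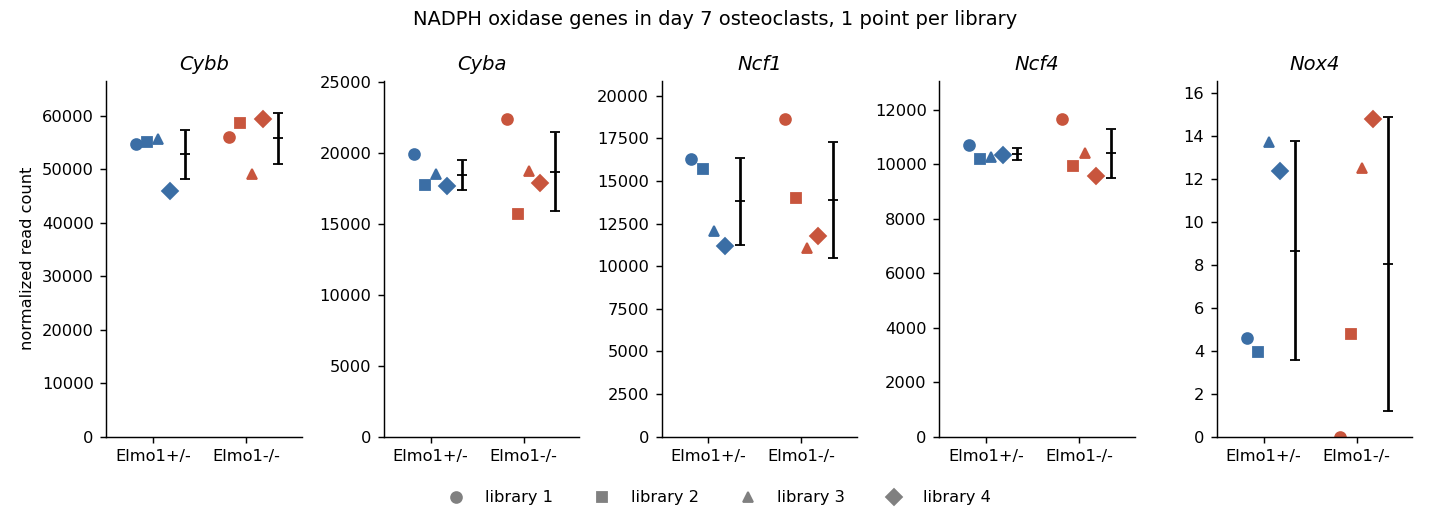
Normalized read counts (vertical axes, from 0) of the 5 genes in each library, grouped by genotype, with the marker shape giving the library number and the black bar the mean ± SD of 4 libraries. The genotypes overlap in all 5 panels, and in the panels of *Ncf1* and *Nox4* the libraries numbered 1 and 2 stand apart from those numbered 3 and 4.

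For the Rac GTPases that join the active enzyme the genotypes overlapped too. *Rac2*, the Rac GTPase of blood cells, lay between 31553 and 42410 normalized counts, with a log2 difference of -0.06 (SE 0.11, limma adjusted p = 0.9999). *Rac1*, the Rac found in all tissues, lay between 10962 and 11639, with a log2 difference of 0.00 (SE 0.06, limma adjusted p = 0.9999), and it shares 2309 exon bases with *Daglb* on the opposite strand.

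**Figure D2:**
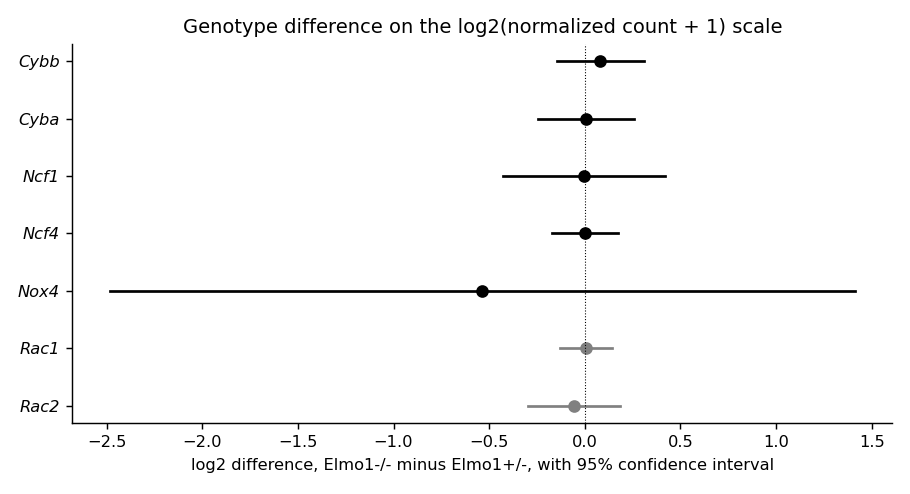
Log2 difference (horizontal axis, *Elmo1*-/- minus *Elmo1*+/-, on the log2(normalized count + 1) scale) with its 95% confidence interval from limma for the 5 members (black) and for *Rac1* and *Rac2* (grey), 4 libraries per genotype. All 7 intervals include 0, and that of *Nox4*, from -2.48 to 1.41, is the widest.

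Compared per exon length, the membrane core stood above the cytosolic subunits. On the RPKM scale, *Cyba* lay between 493 and 645 over the 8 libraries, *Cybb* between 255 and 329, *Ncf4* between 149 and 173, *Ncf1* between 96.5 and 152 and *Nox4* between 0 and 0.0549. This order held within each of the 8 libraries. In counts not scaled by length, *Cybb* stood above *Cyba* and *Ncf1* above *Ncf4* in every library, so the order within these pairs rests on the exon lengths. The level of *Cyba* was 1.5 to 2.24 times that of *Cybb*, the level of *Cybb* was 1.54 to 2.16 times that of *Ncf4*, and the level of *Ncf4* was 1.14 to 1.71 times that of *Ncf1*. The ranges of *Ncf4* and *Ncf1* met across libraries, *Ncf1* reaching 152 in *Elmo1*-/- replicate 1, so this last pair parted only within a library.

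By mean level per length among the 14139 tested genes, *Cyba* ranked 83, *Cybb* 195, *Ncf4* 348, *Ncf1* 484 and *Nox4* 14066. *Rac2*, at 331 to 423 on the same scale, lay between *Cybb* and *Cyba*, while *Rac1*, at 75.6 to 84.3, lay below all 4 expressed members. Of the 4496 exon bases of *Rac1*, 2309 are shared with *Daglb* on the opposite strand. If reads there went uncounted, the level of *Rac1* is understated, so its place below *Ncf4* and *Ncf1* is not established. The 5 members took 0.275% to 0.325% of all reads of a library. Exon lengths came from an annotation that may differ from the one used for counting, and a level per length takes every annotated exon as transcribed.

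**Figure D3:**
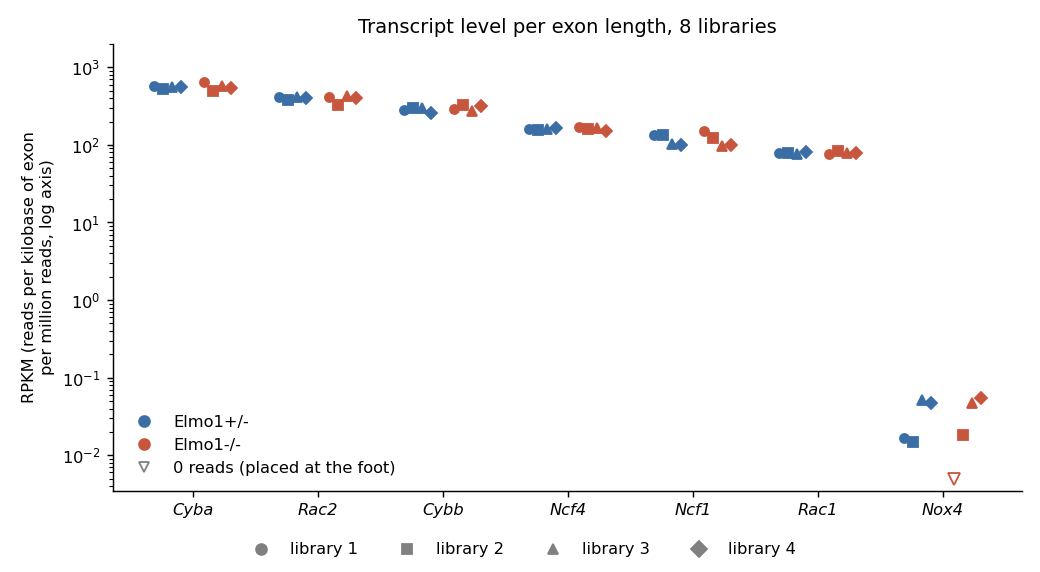
RPKM, reads scaled by exon length and library total (vertical axis, log scale), of the 5 members and of *Rac1* and *Rac2* in each of 8 libraries, with colour for genotype and marker shape for library number. *Nox4*, at 0 to 0.0549, lies below 6 genes that reach 75.6 or more in every library, and the open triangle marks its 1 library with 0 reads.

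The proportions between subunits were also compared, since a ratio of genes within 1 library does not depend on the scaling between libraries. As 1 was added to each count, this does not hold for the low counts of *Nox4*. The log2 ratio of *Cybb* to *Cyba* normalized counts was 1.51 ± 0.12 (SD, n = 4) in the controls and 1.58 ± 0.27 (SD, n = 4) in the knockout libraries. This difference of 0.07 was smaller than the spread (exact permutation p = 0.6, adjusted over 3 ratios p = 0.943). For *Ncf1* to *Ncf4* the log2 ratio was 0.39 ± 0.26 (SD, n = 4) in the controls and 0.39 ± 0.25 (SD, n = 4) in the knockout libraries (exact permutation p = 1.0, adjusted p = 1.0). The ratio of *Nox4* to *Cybb*, as log2 with 1 added to each count, was -12.6 ± 0.89 (SD, n = 4) and -13.2 ± 1.85 (SD, n = 4), again with a difference inside the spread (exact permutation p = 0.629, adjusted p = 0.943). The test was two-sided over 70 arrangements, with 0.0286 as the smallest p it can give.

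Library number parted 2 of the 5 members without overlap, 1 in each direction, beside 4803 genes (34.0%) of the 14139 tested. Of all genes tested 18.1% were higher and 15.8% lower in libraries 3 and 4. Without *Nox4*, whose difference the filter fixed, 1 of the other 4 members did not overlap. *Ncf1* was at 13977 to 18627 normalized counts in the 4 libraries numbered 1 and 2 and at 11066 to 12064 in the 4 numbered 3 and 4, a log2 difference of -0.48, libraries 3 and 4 minus libraries 1 and 2. *Nox4* was at 0 to 4.79 normalized counts in the first set and at 12.4 to 14.8 in the second, a log2 difference of 2.01, and this is also the set through which it passed the filter. These sets follow the main axis of variation of the same libraries and are given with no test.

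*Cybb* (log2 difference -0.10), *Cyba* (-0.04) and *Ncf4* (-0.06) overlapped between the sets. The *Ncf1* to *Ncf4* log2 ratio was 0.49 to 0.68 in libraries 1 and 2 and 0.09 to 0.30 in libraries 3 and 4, without overlap, so the p47phox transcript was lower relative to that of p40phox in the second set. Beside these values, all 12 osteoclast markers were higher in libraries 3 and 4 without overlap, among them *Acp5*, *Ctsk* and *Dcstamp*. Of 12 macrophage markers 6 were lower there without overlap, among them *Mrc1*, *Cd14*, *Mertk*, *C5ar1* and *Itgam*. Of 13 neutrophil markers only *S100a8* was lower there without overlap, and 0 were higher. Their sum was 760 to 1081 RPKM in libraries 1 and 2 and 596 to 739 in libraries 3 and 4. *S100a8* itself was the largest part of that sum, with a mean of 578 RPKM over the 8 libraries. The next were *Mmp8* at 108 and *S100a9* at 103, so the sum does not stand for the markers as a set. The part of these cell markers in the *Ncf1* and *Nox4* values was not tested.

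**Figure D4:**
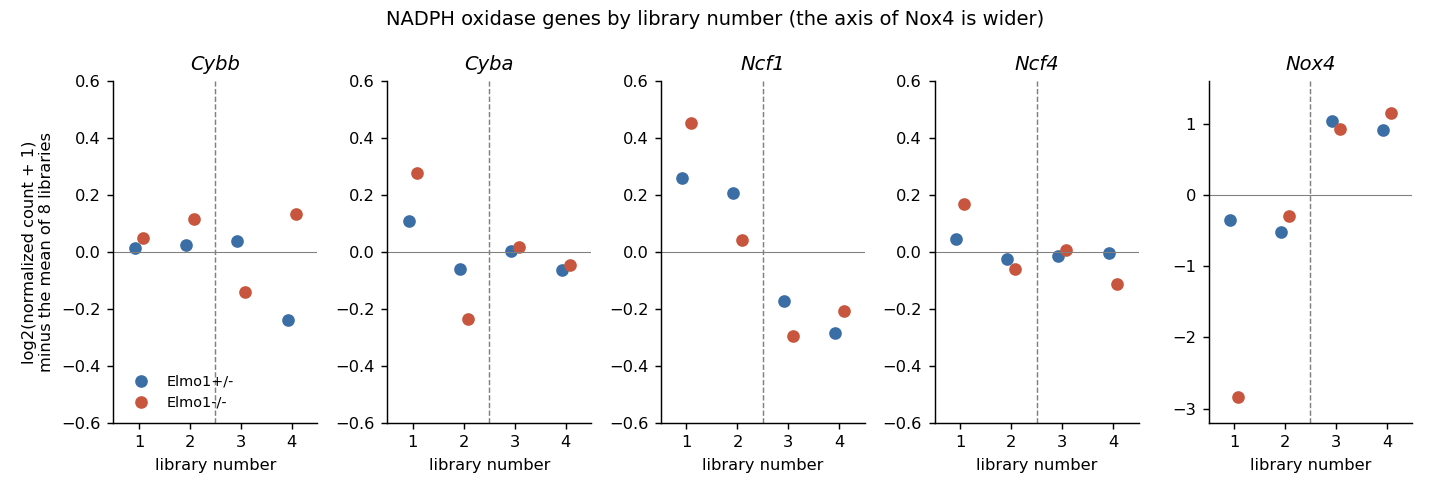
Log2(normalized count + 1) minus the mean of the 8 libraries (vertical axis) against library number for each of the 5 genes, with colour for genotype and a dashed line between libraries 2 and 3. *Ncf1* is lower and *Nox4* higher to the right of the dashed line in both genotypes, by -0.48 and 2.01 in the mean, while the other 3 genes overlap across it.

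The genotype difference was also taken within each set. The log2 genotype difference of *Cybb* was 0.06 in libraries 1 and 2 and 0.10 in libraries 3 and 4, that of *Cyba* was -0.00 and 0.02, that of *Ncf1* was 0.01 and -0.02, and that of *Ncf4* was 0.05 and -0.05. For *Nox4* it was -1.13 in libraries 1 and 2, where *Elmo1*-/- replicate 1 is at 0, and 0.06 in libraries 3 and 4. A limma test of genotype by set gave an adjusted p of 0.9999 for each of the 5 members.

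By profile over the 8 libraries, measured as the root mean square difference between log2 values each centred on its own mean, *Ncf4* was closest to *Cyba* (0.08) among the members. *Ncf1* was 0.22 from *Ncf4* and 0.24 from *Cybb*, and *Nox4* was 1.295 or more from every other member. Among 11816 genes with a mean normalized count of at least 50, the 3 closest to *Ncf1* were *Clec4d* (0.03), *Bin1* (0.04) and *Lyz2* (0.04), of which *Lyz2* encodes the lysozyme of myeloid cells. All 3 were lower in libraries 3 and 4 without overlap, as *Ncf1* was, a direction that comes with choosing genes by likeness over these same libraries. The closest to *Nox4* were *Slc6a17* (0.23), *Rcan2* (0.33) and *Dsg2* (0.34), all higher in libraries 3 and 4, which again comes with the choice. The *Nox4* profile itself rests on 0 to 19 reads per library, and the gene passed the filter only through libraries 3 and 4. The closest to *Ncf4* were *Tjap1*, *Sod1* and *S100a11* (each 0.02), to *Cyba* *Zkscan6*, *Stx8* and *Atox1* (each 0.04) and to *Cybb* *Crebrf*, *Ugt1a7c* and *Atp11a* (each 0.05).

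No genotype difference was detected among the genes that surround the oxidase either. Of 15 other oxidase genes, which hold the Rac GTPases, the chaperone *Cybc1*, the proton channel *Hvcn1* and the other NOX and DUOX enzymes with their partners, 9 were tested and 0 passed in either direction, with a median log2 genotype difference of -0.03 beside -0.00 over all genes tested. *Rac2* was the highest of them per length, *Nox3* stood at 24.6 to 58.3 normalized counts and *Duox1* and *Duoxa2* had 0 reads in all 8 libraries. Of 19 genes that signal to the oxidase, such as protein kinase C isoforms, Rac exchange factors and inhibitors of small GTPases, all were tested and 0 passed, with a median of 0.01 and *Arhgdib*, a GDP dissociation inhibitor of small GTPases, as the highest per length at 514 to 587 RPKM.

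Of 11 genes that dispose of superoxide and peroxide, 10 were tested and 0 passed, with a median of -0.03. *Prdx1*, a peroxiredoxin, was the highest per length at 1649 to 2225 RPKM. *Sod3*, the secreted superoxide dismutase, was the 1 gene of the 4 lists whose genotypes did not overlap, beside 0.941% of all genes tested, with normalized counts of 9.19 ± 1.13 (SD, n = 4) in the controls and 13.3 ± 2.996 (SD, n = 4) in the knockout libraries and a limma adjusted p of 0.9999 (unadjusted p = 0.0837). Its control values lay around the minimum of 10, so it was tested mainly through the knockout libraries, where it is higher. Of 8 genes known to regulate transcription of the phagocyte subunits, 7 were tested and 0 passed, with a median of 0.04 and *Spi1*, which encodes PU.1, as the highest per length at 147 to 174 RPKM. In these 4 lists 0 genes had an unadjusted limma p under 0.05, and edgeR or DESeq2 called none of them at an adjusted p of 0.05. *Duoxa1* and *Hoxa9* reached the minimum of 10 only in libraries 3 and 4, so that the filter fixed their difference by library number. Without these, 2 of 8 other oxidase genes, 8 of 19 signalling genes, 3 of 10 disposal genes and 4 of 6 regulators did not overlap between libraries 1 and 2 and libraries 3 and 4, beside 34.0% of all genes tested, a share that includes genes of that kind.

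**Figure D5:**
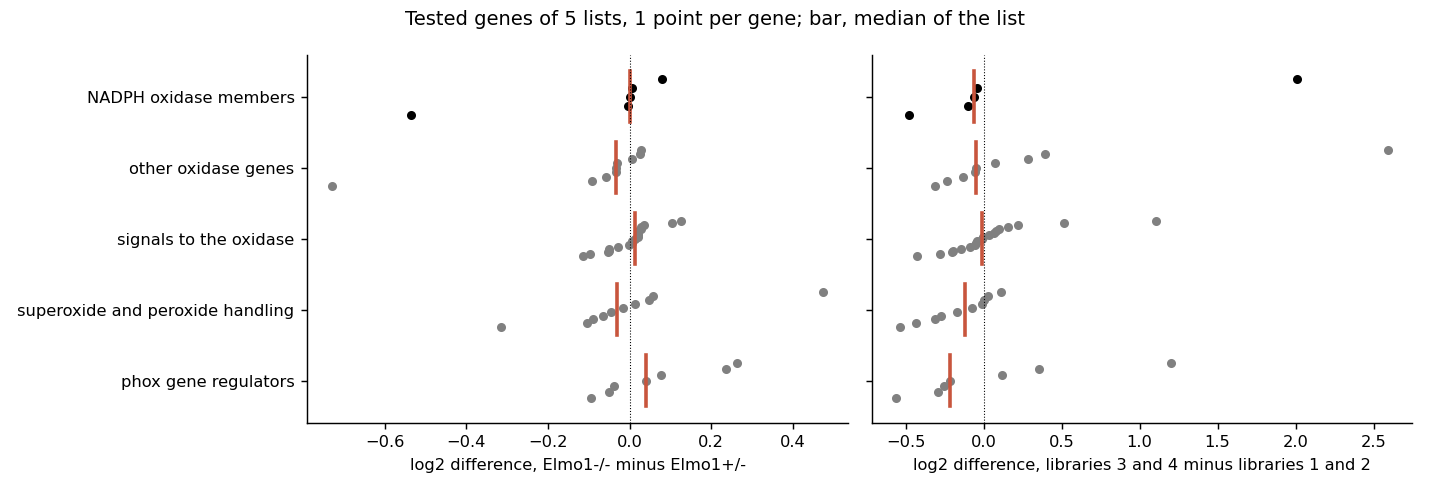
Log2 differences (horizontal axes) of the tested genes of 5 lists, 1 point per gene and a bar at the median of each list, between genotypes (left) and between libraries 3 and 4 and libraries 1 and 2 (right). The left panel holds medians between -0.03 and 0.04, and in the right panel *Nox4* is the member at 2.01 and *Ncf1* the member at -0.48.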

How the data were processed

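Osteoclast mRNA libraries of 8 mice were prepared by the authors with the Illumina TruSeq platform. The submitters' processing notes name FastQC, STAR, featureCounts and DESeq2 without versions, and for the genome build, the annotation and the strand setting nothing is given in the sources used here. The authors deposited a normalized signal, in which each library's reads per gene carry 1 common DESeq2 size factor, for 46517 Ensembl identifiers. Columns of the authors' own comparison (mean, fold change, error, statistic and p-values) were not used. Dividing by the step of each library returned whole reads for 100% of values within 0.01 of a read. Symbols, positions and exon lengths came from GENCODE mouse release 21 (GRCm38), which matched 46005 identifiers. Start regions came from RefSeq (GRCm38.p6). Genotypes were taken from the genotype labels.

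Genotypes were compared with limma 3.58.1 (R 4.3.3, trend and robust settings) on the scale of log2(normalized count + 1). The 14139 genes that reached 10 in 4 or more libraries were tested, and Benjamini-Hochberg adjusted p-values were called at 0.05. RPKM levels were computed from the recovered reads. Single values were compared with exact two-sided permutation tests (scipy 1.17.1). Alternatives were edgeR 4.0.16 and DESeq2 1.42.0 on the recovered reads, other scalings, filters and pseudocounts, a replicate block, a term for the library set, and each library left out in turn. The limma, edgeR and DESeq2 steps were tested on simulated data. Deviations of same-numbered libraries of the genotypes correlated at 0.156 to 0.704 across genes, all over 0.1. Libraries with other numbers in the same set correlated at 0.0259 to 0.691, so these values cannot show that a number pairs libraries. *Elmo1*+/- replicate 2, for example, correlated at 0.691 with *Elmo1*-/- replicate 1 and at 0.156 with *Elmo1*-/- replicate 2. The replicate block took the numbers as pairs, although the labels do not say what they stand for. Libraries of a genotype differed by a chi-square per gene of 8.72 or more, so none was a copy.

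The members, the gene lists and the sets of libraries were chosen with earlier results of these data known. Genes named were the members, *Elmo1*, *Rac1*, *Rac2*, from each list those with an unadjusted p under 0.05, those without overlap between genotypes and the highest per length, and the 3 genes most like each member. *Nox3*, *Duox1*, *Duoxa2*, *Duoxa1*, *Hoxa9*, *Irf8*, *Cux1* and *Cebpa*, the marker genes and *Gtf2ird2* were named in addition, after their values were seen. Some listed genes are counted in their lists but not reported here by name.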

Additional observations from a re-analysis of the deposited data

Results flagged for a closer look

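*Cybb* in *Elmo1*+/- replicate 4 stood at a normalized count of 45891, below the 54698 to 55612 of the other 3 control libraries, a gap of 0.906 of the range of the group, above Dixon's 95% critical value. It was the 1 value that stood out in 22 groups of 4 examined, and chance alone gives about 1 in 20. The cause was not tested. Without that library the log2 difference of *Cybb* between genotypes was 0.01 (limma adjusted p = 0.9999).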

How the results depend on the processing

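No alternative brought a member past the threshold, and the adjusted p of the members ranged from 0.936 to 1.0 over them. The *Ncf1* difference, near 0, changed sign and was 0.0059 with edgeR, 0.0054 with DESeq2, 0.0041 after TMM scaling and 0.0015 with equal totals, and that of *Nox4*, -0.54, was 0.011 with edgeR, -0.077 with DESeq2, -0.119 with a pseudocount of 8 and -0.745 with one of 0.5. The *Nox4* to *Cybb* ratio difference, -0.62, was -0.199 with a pseudocount of 8 and -0.825 with one of 0.5. With each library left out in turn the log2 difference ranged from 0.01 to 0.14 for *Cybb*, from -0.085 to 0.086 for *Cyba*, from -0.157 to 0.093 for *Ncf1*, from -0.056 to 0.038 for *Ncf4*, from -0.80 to 0.32 for *Nox4*, from -0.010 to 0.018 for *Rac1* and from -0.104 to 0.038 for *Rac2*. The difference in log2 ratio then ranged from -0.031 to 0.161 for *Cybb* to *Cyba*, from -0.101 to 0.095 for *Ncf1* to *Ncf4* and from -1.07 to 0.24 for *Nox4* to *Cybb*. *Nox4* reached 0.32 without *Elmo1*-/- replicate 1, and it left the tested genes at a minimum of 50 or without any library numbered 3 or 4. Genes called lower in *Elmo1*-/- numbered 2 with DESeq2 and from 1 to 2 with 1 library left out, the second being *Gpr137b-ps* (without *Elmo1*+/- replicate 2), and 0 were called higher in all. The replicate block pairs libraries by number, a pairing that the correlations between libraries do not establish. With it the difference of *Cybb* stayed at 0.08 (SE 0.09), that of *Ncf1* had an SE of 0.08 in place of 0.19, and no call changed. For *Nox4* the SE was 0.50 in place of 0.86. *Nox4* rests on 0 to 19 reads per library.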

Other observations

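The genotype difference was also taken between libraries of the same number, which are not established as pairs. The log2 difference of *Cybb*, *Elmo1*-/- minus *Elmo1*+/-, ranged from -0.18 to 0.37 and was above 0 for 3 of the 4 numbers. *Cyba* ranged from -0.17 to 0.17 and was above 0 for 3 of 4, *Ncf1* from -0.17 to 0.19 with 2 of 4, *Ncf4* from -0.11 to 0.12 with 2 of 4 and *Nox4* from -2.48 to 0.24 with 2 of 4.

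Among the genes around the oxidase, *Duoxa1*, a maturation factor of the DUOX1 oxidase, was at 0 to 3.68 normalized counts in libraries 1 and 2 and at 11.7 to 24.4 in libraries 3 and 4, while *Duox1* had 0 reads in all 8 libraries. *Duoxa1* passed the filter on low values only through libraries 3 and 4, where it is high. *Irf8*, an interferon regulatory factor of the monocyte lineage, was at 3396 to 4375 in libraries 1 and 2 and at 2374 to 2636 in libraries 3 and 4. Of the 7 tested regulators of the phagocyte subunits, 2 were lower in libraries 3 and 4 without overlap, *Irf8* and *Cebpa*. In the other direction, 3 were higher there without overlap, *Spi1*, *Cux1* and *Hoxa9*. *Spi1*, for example, was at 12173 to 13865 in libraries 1 and 2 and at 14025 to 14676 in libraries 3 and 4. These comparisons follow the main axis of variation of the same libraries and carry no test. *Duoxa1* shares 682 exon bases with *Duoxa2* on the opposite strand.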
